A study of Homo sapiens with 3 samples.

Results

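The genes described here encode 10 plasma membrane amino acid transporters: SLC7A11, SLC7A5, SLC3A2, SLC7A1, SLC1A4, SLC1A5, SLC38A1, SLC38A2, SLC6A9 and SLC43A1. They were taken from a given list of symbols, by the gene name that the array's maker attached to each probe. The 10 genes are part of the 30982 gene names on the array, and 17 of its 41000 probes measure them. All 17 probes carry a transcript accession that still belongs to the same gene today. RNA came from 1205Lu, an established human melanoma line that was recovered from a lung metastasis in a mouse carrying WM793 cells, and it was hybridised to 1-colour arrays, with 1 array for each of 3 cultures. The original monolayer (OM) had been kept flat for 14 days in RPMI-1640 with 10% FCS. The melanoma bodies (MB), 3-dimensional clusters that attach to the dish, had been kept for 14 days in hESC medium, which is DMEM/F-12 supplemented by KnockOut serum replacement (20%), nonessential amino acids, L-glutamine and 2-mercaptoethanol. The new monolayer (NM) was seeded by such bodies, with 14 days in hESC medium followed by 10 days in RPMI-1640 with 10% FCS, and bodies left in the dish were taken out before RNA was prepared. All 3 cultures are the same line without any transgene or drug, so the comparisons ask how transporter RNA differed between the bodies and the flat cultures before and after them. Culture form and medium changed together between MB and both monolayers, and their parts in any difference cannot be told apart.

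Amino acids cross the plasma membrane through carrier proteins of the solute carrier families. Some are heteromeric: the SLC3A2 protein (4F2hc, CD98) is a heavy chain that brings a light chain of the SLC7 family to the cell surface, and the light chain sets what is carried. SLC7A5 (LAT1) exchanges large neutral amino acids such as leucine, and SLC7A11 (xCT) takes up cystine in exchange for glutamate, which feeds glutathione synthesis. Sodium-coupled carriers of the SLC1, SLC6 and SLC38 families load cells with small neutral amino acids and glutamine. Many of these genes are known targets of ATF4, the transcription factor of the amino acid response, and melanoma lines commonly express LAT1, CD98 and xCT.

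Each member probe was printed in 1 spot, and with 1 array per culture there is no replicate culture, so no test between cultures could be made, and every fold is limited by the number of arrays. Signals are given in arbitrary units (a.u.), scaled to the average of 3 housekeeping genes (GAPDH, ACTB and HSP90AA1), which was 0.978 of its OM level for MB and 0.877 for NM. The repeated measurement available was that of 264 other probes printed in 10 spots. Their single spots gave a technical SD of the log2 ratio of MB to OM of 0.060 above 1000 a.u. (146 probes, a 1.04-fold difference), 0.077 between 100 and 1000 a.u., and 0.18 between 30 and 100 a.u. The scanner software's own error was 10 to 10.7% of the signal for member probes above 100 a.u. and 11.2 to 17.2% for dimmer ones. Neither error contains the variation between cultures. All 17 member probes were well above background on all 3 arrays, and 0 of their spots were marked as outliers or saturated. Of the 9 melanocyte lineage markers looked up, MITF, SOX10, PMEL, S100B and MIA were above 100 a.u. on every array, whereas TYR and TYRP1 were not well above background on any, and the summed unscaled signal of the list was 101157 a.u. in OM, 143020 in MB and 79484 in NM. Of 5 leukocyte markers, PTPRC and LYZ were at background on all 3 arrays, and the sum of 4905 a.u. in OM, 1890 in MB and 5104 in NM came mostly from CD68. Of 4 endothelial markers the sum was 229, 501 and 137 a.u. in the same order with CDH5 at background on all arrays, and of 4 keratinocyte markers 39336, 39764 and 32779 a.u. with KRT5 and KRT1 at background. These sums too came mostly from single genes, VWF and KRT10, the latter at 39103, 39383 and 32649 a.u. The melanocyte sum came mostly from MIA and S100B. PMEL, 1 of the 5 melanocyte markers above 100 a.u., was lower in MB than in OM (log2 ratio -0.42). The part of these marker levels in the transporter values was not tested, and in bulk RNA, fewer cells of a type and less RNA per cell cannot be told apart.

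By the brightest probe of each gene, the MB culture had less transporter RNA than either monolayer for most of the 10 genes. The largest differences were those of SLC7A5, SLC3A2 and SLC38A1. Each gene is represented here by its probe with the highest mean signal. The median log2 ratio of MB to OM was -0.31 over the 10 genes, or 0.809-fold, within a range of -1.72 to 0.68, where the median over all 17815 genes above 100 a.u. was 0.095. For MB to NM it was -0.81, or 0.572-fold, within a range of -1.82 to -0.040, beside a median of 0.036 over 17772 genes. Against OM, 8 of the 10 were lower and 2 were higher in MB (42.3% of all genes were lower), and against NM 10 of 10 were lower (48.0% of all genes). The shares and medians of all genes leave out genes below 100 a.u. on both arrays, whereas the 10 include SLC6A9, which was dimmer throughout. With the mean over a gene's probes, 6 of the 10 were lower in MB against OM and 9 against NM. The sign is not equally firm for each gene: with the software's error added to and taken from each signal, the MB and OM ranges overlapped for SLC7A11, SLC1A5, SLC6A9 and SLC43A1, and the MB and NM ranges for SLC38A2. Both comparisons use the same MB array, so they are not independent.

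At a 2-fold threshold with the brighter array above 100 a.u., SLC7A5, SLC3A2 and SLC38A1 were lower in MB than in OM, which is 3 of 10 genes, where 4.23% of all genes passed in that direction. Against NM the 4 genes SLC7A5, SLC3A2, SLC1A4 and SLC38A1 passed, where 10.4% of all genes did. None of the 10 was 2-fold higher in MB than in OM (6.76% of all genes) or than in NM (13.7%). At the 5-fold threshold used in the study's methods, 0 of 10 were lower against OM (0.69% of all genes) and 0 of 10 against NM (1.67%), and 0 of 10 were higher against either (1.04% and 2.88%). SLC6A9 was below 100 a.u. on all 3 arrays, so 9 of the 10 genes could have passed. These counts use the representing probes. The other SLC7A5 probe, at 1478 a.u. in OM, was 5.34-fold lower in MB than in OM and alone would have passed 5-fold.

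**Figure D1:**
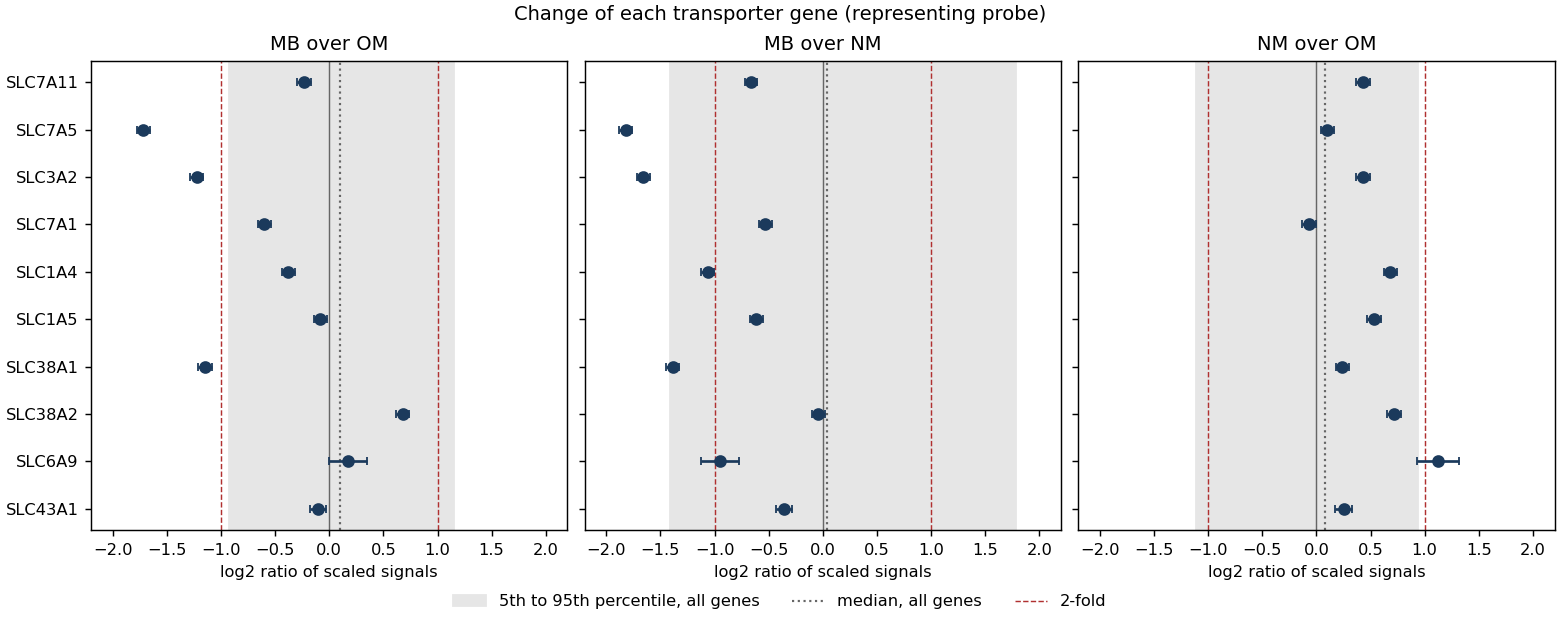
Log2 ratio of scaled signals for the representing probe of each gene, for MB over OM, MB over NM and NM over OM; bars are 1 technical SD from probes printed in 10 spots. SLC7A5, SLC3A2 and SLC38A1 lie beyond the dashed 2-fold line and below the grey band (5th to 95th percentile of all genes) in MB over OM, from -1.72 to -1.15, and in NM over OM 9 of the 10 points lie right of 0.

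SLC3A2, the heavy chain shared by several light chains, gave 47047 a.u. in OM, 20122 in MB and 63470 in NM with the probe at chr11:62412778-62412837 (hg17, plus strand). The MB signal was the lowest of the 3 and the NM signal the highest. This is 2.34-fold less in MB than in OM (log2 ratio -1.23) and 3.15-fold less than in NM (-1.66), and 2.85% of all genes had a lower log2 ratio of MB to OM. Its other probe, 3513 bases toward the 5′ end at chr11:62409265-62409324, gave 16312, 6981 and 22503 a.u. The probes of SLC3A2 differed by less than the technical SD in every comparison, with 2.34-fold and 3.22-fold less signal in MB at the 5′ one.

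SLC7A5, the light chain that forms the leucine exchanger LAT1 with SLC3A2, had the lowest ratio of the 10 genes in both comparisons of MB. Its probe at chr16:86421408-86421467 (hg17, minus strand) gave 24135 a.u. in OM, 7341 in MB and 25916 in NM. The monolayers were close to each other and MB stood apart, with 3.29-fold less signal than OM (log2 ratio -1.72) and 3.53-fold less than NM (-1.82). A lower log2 ratio was found for 1.40% of all genes against OM and for 2.93% against NM. The 60-base probe 4112 bases toward the 5′ end lies across an exon junction, since its bases match a stretch of 1448 genomic bases at chr16:86424132-86425579 (hg17, minus strand). It is shown because it gave the largest difference of any of the 17 probes.
SLC7A5 junction probe: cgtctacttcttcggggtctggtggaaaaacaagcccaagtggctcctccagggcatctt
Its signal was 1478 a.u. in OM, 277 in MB and 887 in NM, or 5.34-fold less in MB than in OM and 3.21-fold less than in NM. Both SLC7A5 probes placed MB lowest, but they ordered the monolayers differently: NM was 1.07-fold above OM with the first and 1.67-fold below it with the junction probe. The probe representing SLC7A5 shares a run of 37 bases, on the opposite strand, with a probe of no gene name. That probe gave 44.5, 14.0 and 49.7 a.u., unscaled, in OM, MB and NM.

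SLC7A11, the light chain of the cystine and glutamate exchanger xCT, differed much less between MB and the monolayers than its partner SLC3A2. The probe at chr4:139446439-139446498 (hg17, minus strand) gave 1973 a.u. in OM, 1678 in MB and 2659 in NM. MB was 1.18-fold below OM (log2 ratio -0.23), within the overlap of the software's error ranges, and 1.58-fold below NM (-0.66), outside it. Of all genes, 25.8% had a lower log2 ratio of MB to OM. A second probe, 2277 bases toward the 3′ end, gave 1223, 1057 and 1717 a.u. and log2 ratios within 0.06 of the first in every comparison. The third SLC7A11 probe, 3273 bases toward the 5′ end, was below 100 a.u. on each array, at 56.5, 84.9 and 80.7 a.u., and there MB was above OM with a log2 ratio of 0.59.

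Other light chains of SLC3A2 were read from a list of 37 further amino acid transporters, and these genes were chosen after their values were seen. SLC7A6 (y+LAT2) had unscaled signals of 969 a.u. in OM, 1570 in MB and 380 in NM, so that MB was the highest, with log2 ratios of 0.73 against OM and 1.89 against NM. SLC7A7 (y+LAT1) was dim, at 86.6, 56.7 and 158 a.u. SLC7A8 (LAT2) and SLC7A10 (Asc-1) were not well above background on any array. Of the light chains with a signal, SLC7A5, SLC7A11 and SLC7A7 were lowest in MB with their representing probes, and SLC7A6 was highest there.

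**Figure D2:**
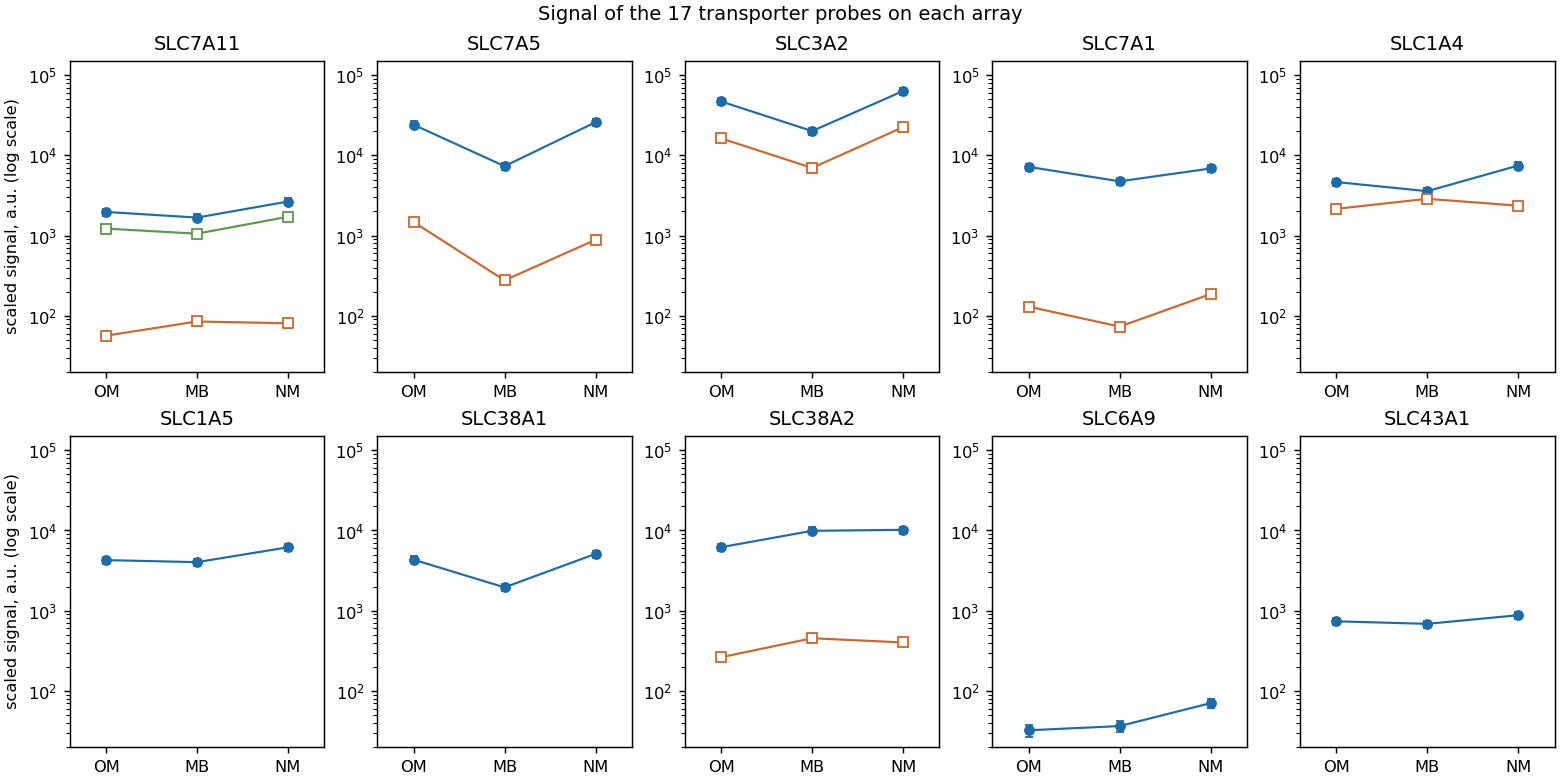
Scaled signal in a.u. (log axis) of each of the 17 probes on OM, MB and NM, with a panel per gene; filled circles are the representing probe, open squares the other probes, and bars the scanner software's error. Both SLC7A5 and both SLC3A2 probes dip at MB, SLC38A2 is higher on MB and NM than on OM with both probes, and the SLC6A9 probe stays below 100 a.u. throughout.

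SLC43A1 (LAT3), which carries large neutral amino acids without a heavy chain, was nearly level. It gave 737 a.u. in OM, 686 in MB and 878 in NM at chr11:57008877-57008936 (hg17, minus strand). MB was 1.08-fold below OM (log2 ratio -0.10), with overlapping error ranges, and 1.28-fold below NM (-0.36). Its relative SLC43A2 (LAT4), chosen after its values were seen, had 488, 186 and 394 a.u. unscaled and was 2.56-fold lower in MB than in OM and 2.35-fold lower than in NM.

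SLC7A1 (CAT-1), a carrier of cationic amino acids such as arginine and lysine, was lower in MB with both of its probes. The probe at chr13:28982093-28982152 (hg17, minus strand) gave 7198 a.u. in OM, 4750 in MB and 6869 in NM. MB was the lowest, 1.52-fold below OM (log2 ratio -0.60) and 1.45-fold below NM (-0.53), and OM and NM had overlapping error ranges. The other SLC7A1 probe lies 7582 bases toward the 5′ end, across an exon junction (322 genomic bases at chr13:28989413-28989734, minus strand), and is shown because its difference against NM was larger.
SLC7A1 junction probe: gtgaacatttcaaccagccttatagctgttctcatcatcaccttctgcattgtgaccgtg
It gave 130 a.u. in OM, 73.3 in MB and 187 in NM. With it MB was 1.77-fold below OM and 2.54-fold below NM (log2 ratio -1.35), past the 2-fold line that the brighter probe did not reach.

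SLC1A5 (ASCT2) and SLC1A4 (ASCT1) are sodium-dependent exchangers of small neutral amino acids, and SLC1A5 is a main glutamine carrier of dividing cells. SLC1A5 had 1 probe, at chr19:51970739-51970798 (hg17, minus strand), with 4270 a.u. in OM, 4028 in MB and 6171 in NM. OM and MB lay within each other's error range, at a 1.06-fold difference, and NM was 1.53-fold above MB. The SLC1A4 probe at chr2:65160089-65160148 (hg17, plus strand) gave 4656, 3580 and 7478 a.u., with MB below OM at a log2 ratio of -0.38 and 2.09-fold below NM (-1.06). The SLC1A4 probe 1597 bases toward the 3′ end gave 2158 a.u. in OM, 2875 in MB and 2362 in NM. Here MB was the highest, 1.33-fold above OM and 1.22-fold above NM, so the probes of SLC1A4 disagreed in sign in both comparisons of MB, and its call against NM rests on the brighter probe. The SLC1A4 call was also lost with the mean over its probes, at a log2 ratio of -0.39, and without scaling, at -0.91.

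SLC38A1 (SNAT1) and SLC38A2 (SNAT2) are sodium-coupled carriers of glutamine, alanine and other small neutral amino acids, and they went opposite ways against OM. SLC38A1, with 1 probe at chr12:44868274-44868333 (hg17, minus strand), gave 4327 a.u. in OM, 1953 in MB and 5112 in NM. The MB signal was 2.22-fold below OM (log2 ratio -1.15) and 2.62-fold below NM (-1.39), and 3.33% of all genes had a lower ratio of MB to OM. SLC38A2 gave 6188, 9907 and 10187 a.u. at chr12:45038977-45039036 (hg17, minus strand). It was 1.60-fold higher in MB than in OM (log2 ratio 0.68) and within the technical SD of NM (-0.040). The second SLC38A2 probe, 1915 bases toward the 5′ end, gave 263, 454 and 402 a.u., again lowest on OM. In the log2 ratio of MB to OM, SLC38A2 was higher than 85.5% of all genes.

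SLC6A9 (GLYT1), a sodium- and chloride-coupled glycine carrier, was the gene of the 10 that stayed below the 100 a.u. minimum on every array. Its probe also spans an exon junction, 148 genomic bases at chr1:44135592-44135739 (hg17, minus strand), and is shown because it is the only probe for this gene.
SLC6A9 junction probe: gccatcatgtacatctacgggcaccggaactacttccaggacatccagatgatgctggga
It gave 32.3 a.u. in OM, 36.4 in MB and 70.4 in NM. MB and OM differed by less than 1 technical SD (log2 ratio 0.17), whereas NM was 2.18-fold above OM (1.12) and 1.93-fold above MB. These ratios stand on signals below the minimum and were not counted as called. The log2 ratio of NM to OM was under 2-fold with normexp background correction (0.52), without background subtraction (0.63), without scaling (0.94) and with spike-in scaling (0.99).

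Most of the 10 genes had more signal in the new monolayer than in the original one. The median log2 ratio of NM to OM over the 10 genes was 0.43, or 1.35-fold, beside 0.079 over all 17554 genes above 100 a.u. Of the 10, 1 was lower in NM (43.1% of all genes were lower). The other 9 were higher, among them SLC6A9, which was below 100 a.u. on every array. SLC7A1 was the lower one, at -0.067. For SLC7A5, SLC7A1, SLC38A1 and SLC43A1 the error ranges of NM and OM overlapped. The 6 others were SLC7A11 and SLC3A2, each 1.35-fold higher in NM, SLC1A5 at 1.45-fold, SLC1A4 at 1.61-fold, SLC38A2 at 1.65-fold and SLC6A9. With the other SLC1A4 probe NM was 1.09-fold above OM. None was 2-fold higher with a signal above 100 a.u. (4.36% of all genes) or 2-fold lower (5.98%), and 0 of 10 were 5-fold higher (0.763%) or lower (0.997%). With the representing probes, SLC38A2 therefore had MB and NM together above OM, while SLC7A5, SLC38A1 and SLC7A1 had OM and NM together above MB. The junction probes of SLC7A5 and SLC7A1 did not place OM and NM together. With them NM was 1.67-fold below OM for SLC7A5 and 1.43-fold above it for SLC7A1.

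Where a gene had more than 1 probe, the probes were set side by side as the only repeated view of the same transcript. Of the 10 genes, 5 had 2 probes, 1 had 3 and 4 had 1. The log2 ratio of MB to OM differed between the representing probe and another by 0.00097 for SLC3A2, 0.11 for SLC38A2, 0.23 for SLC7A1, 0.70 for SLC7A5 and 0.79 for SLC1A4. For SLC7A11 it differed by 0.02 with the probe toward the 3′ end and by 0.82, with opposite signs, with the one toward the 5′ end, which was below 100 a.u. on each array. Over 4162 genes with at least 2 probes above 100 a.u. the median range was 0.18, the 90th percentile was 0.72, and in 23.6% the probes had opposite signs, so SLC1A4 lay beyond the 90th percentile and SLC7A5 just within it. The dim SLC7A11 probe and the SLC7A1 junction probe, which was below 100 a.u. in MB, would not enter that count. For MB to NM the SLC1A4 probes differed by 1.35, where the 90th percentile was 1.06. For NM to OM the SLC7A5 probes differed by 0.84, where it was 0.69. No member probe shared a run of 18 or more bases on the same strand with a probe of another gene.

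**Figure D3:**
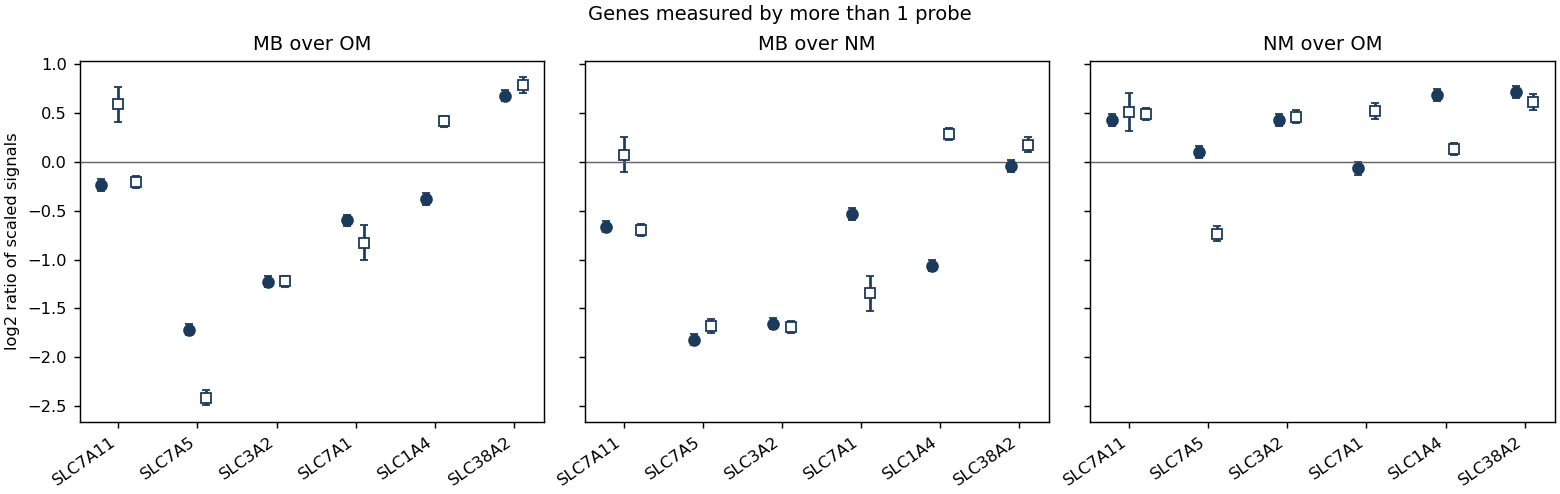
Log2 ratio of scaled signals for every probe of the 6 genes with more than 1, with filled circles for the representing probe, open squares for the others and bars of 1 technical SD. The SLC3A2 probes coincide in each panel, whereas probes lie on opposite sides of 0 for SLC1A4 in MB over OM (-0.38 and 0.41) and MB over NM (-1.06 and 0.28), for SLC7A11 in MB over OM (-0.23 and 0.59) and MB over NM (-0.66 and 0.07), for SLC38A2 in MB over NM (-0.040 and 0.18), and in NM over OM for SLC7A5 (0.10 and -0.74) and SLC7A1 (-0.067 and 0.52).

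The other genes of amino acid transport had medians above 0. Of 37 further transporters on the array, 25 were well above background on at least 1 array, and 13 had a signal above 100 a.u. in OM or MB. Their median log2 ratio of MB to OM was 0.50, and 2 of the 13 were lower in MB. The 2-fold threshold was passed by SLC1A1 and SLC43A2 in the lower direction (4.23% of all genes) and by SLC6A6 and CTNS in the higher (6.76%), and these 4 were chosen after their values were seen. SLC1A1 (EAAT3), a glutamate and cysteine carrier, had 3049 a.u. in OM, 1187 in MB and 674 in NM, unscaled, so it was not higher again in the new monolayer. SLC6A6, the taurine carrier, had 4240, 8318 and 3099 a.u., and CTNS, the lysosomal cystine exporter, 489, 1107 and 588 a.u. Against NM the median over 14 such genes was 0.42, with 6 lower in MB. There SLC7A7 and SLC43A2 were 2-fold lower (10.4% of all genes), and SLC7A6 and SLC6A6 2-fold higher (13.7%). Both medians stayed above 0 under every setting tried, from 0.20 to 0.50 and from 0.25 to 0.57.

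Genes of the amino acid response, the program driven by ATF4 when amino acids are scarce or the endoplasmic reticulum is stressed, were lower in MB, with ratios that reached further down than those of the transporters. Of 15 genes, 12 were 2-fold or more lower against OM (4.23% of all genes) and 4 of these 5-fold or more (0.69%), with a median log2 ratio of -1.76. Against NM 14 were 2-fold lower (10.4% of all genes) and 9 of these 5-fold (1.67%), with a median of -3.20. The genes past 5-fold against OM were STC2, CHAC1, DDIT4 and ATF3, the last 2 named here only to complete that count. The paper had already listed all of these genes as lower in MB, from the same arrays. The list was chosen with such earlier results known, so the shares of all genes give scale and are not a test of it. STC2, a secreted glycoprotein, had unscaled signals of 4643 a.u. in OM, 351 in MB and 7424 in NM (log2 ratios -3.69 against OM and -4.56 against NM). CHAC1, an enzyme that degrades glutathione, had 9743, 671 and 10163 a.u. (-3.83 and -4.08). DDIT3, which encodes the transcription factor CHOP, had 3790, 761 and 11755 a.u. (-2.28 and -4.11), and TRIB3, a pseudokinase, 70359, 22660 and 233522 a.u. (-1.60 and -3.52). In all 4 the MB signal was the lowest and the NM signal the highest. ATF5, another transcription factor of the list, went the other way, at 1020, 1896 and 747 a.u. (0.93 and 1.19). ATF4 itself, chosen after its values were seen, had 209955 a.u. in OM, 71217 in MB and 233007 in NM (-1.53 and -1.87). For NM to OM the median of the list was 0.87, and 6 of 15 were 2-fold higher in NM (4.36% of all genes).

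Of 16 genes of glutathione synthesis and the NRF2 response, which uses the cysteine that SLC7A11 supplies, 15 had a signal above 100 a.u. The median log2 ratio was -0.35 for MB to OM and -0.30 for MB to NM. CTH and CBS, the enzymes that make cysteine from homocysteine, were lower in MB, with unscaled signals of 5519 a.u. in OM, 1145 in MB and 10703 in NM for CTH and 76649, 22310 and 111374 a.u. for CBS. Against NM this was 10.4-fold for CTH and 5.56-fold for CBS. HMOX1, which degrades heme, and GPX4, the lipid peroxide reductase, both chosen after their values were seen, completed the 4 of 15 genes that were 2-fold lower against each monolayer (4.23% of all genes against OM and 10.4% against NM), with log2 ratios against OM of -1.89 and -1.09. None of the 15 was 2-fold higher in MB. Of 22 listed genes that sense amino acids for the mTORC1 kinase and GCN2, 19 were on the array, and GATSL3, GATSL2 and LAMTOR4 had no probe. The medians were 0.33 against OM and 0.26 against NM. In that list 0 of 19 were 2-fold lower in MB against either monolayer, beside 4.23% and 10.4% of all genes. The sestrin SESN2, named after its values were seen, was counted in the amino acid response list instead. Its log2 ratios were -1.97 against OM and -3.28 against NM, so the 0 depends on that placement. SESN3, a sestrin, and TSC1, an mTORC1 inhibitor, both chosen after their values were seen, were 2-fold higher in MB than in OM. Their unscaled signals in OM, MB and NM were 165, 388 and 151 a.u. for SESN3 and 1370, 2723 and 1403 a.u. for TSC1.

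**Figure D4:**
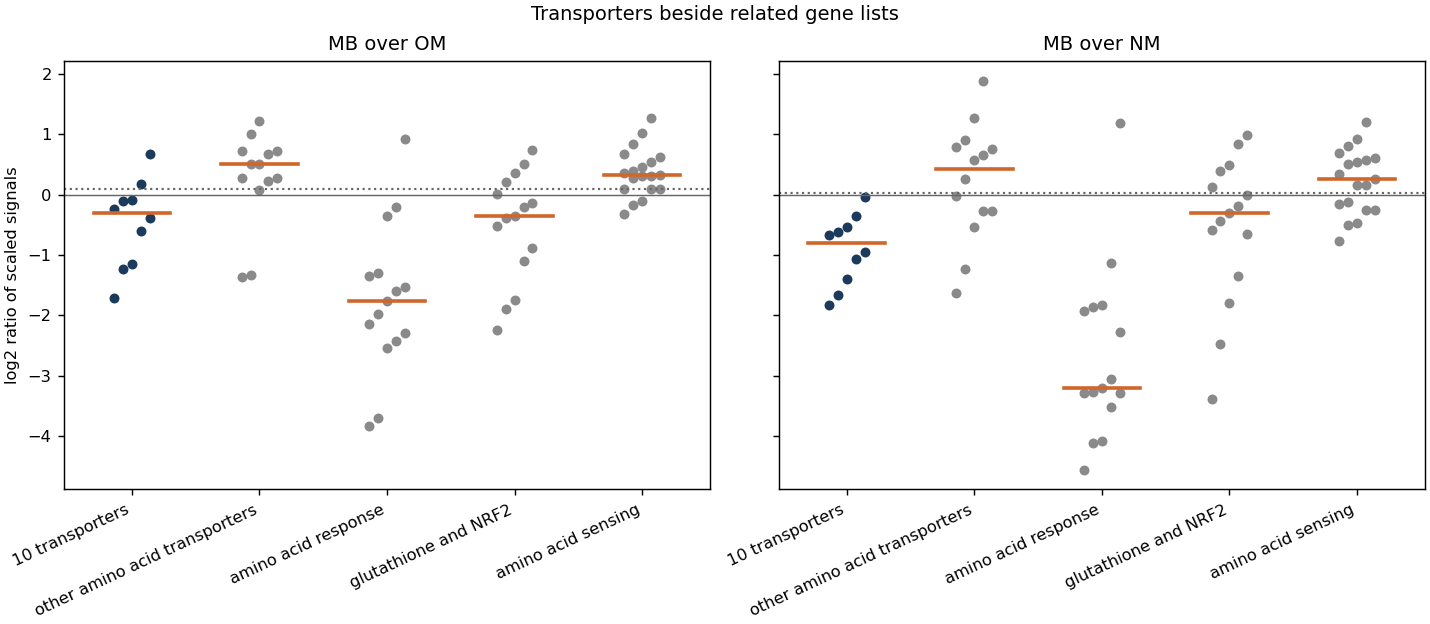
Log2 ratio of scaled signals, MB over OM and MB over NM, for the 10 transporters and the genes of 4 lists with a signal above 100 a.u.; each point is a gene, the orange bar its list's median and the dotted line the median of all genes. The amino acid response genes lie lowest, with medians of -1.76 and -3.20, the 10 transporters between, at -0.31 and -0.81, and the other transporters above 0, at 0.50 and 0.42.

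Sequence before and around the start sites was read from RefSeq promoter windows (GRCh38.p14, 250 bases before to 50 after the start). The windows of 9 of the 10 genes were at hand, 16 in all. SLC7A11 had none and was not searched. The core of the amino acid response element, TGATGNAA on either strand, was found in 5 of these 9 genes and 5 of the 16 windows. Of all 27305 genes 4.46% hold it, and of all 35116 windows 3.62%. The core of the antioxidant response element, TGACNNNGC on either strand, was found in 4 of 9 genes and 4 of 16 windows, where 16.1% of all genes and 13.3% of all windows hold it. Windows of 30 bases around each match are shown because they are all the matches found in the member windows. Of the 3 genes past 2-fold against OM, SLC3A2 holds both motifs, SLC38A1 only TGATGNAA and SLC7A5 only TGACNNNGC. SLC7A1, SLC1A4 and SLC1A5, which did not pass, also hold at least 1 of them. The share of all genes with either motif was not computed, and a link between motif and ratio was not tested. Capitals mark the match, read on the gene's strand, which holds the motif or its reverse complement. The TGATGNAA windows are these:
SLC3A2, chr11:62881719-62881748, plus strand: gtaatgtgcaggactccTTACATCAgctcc
SLC38A1, chr12:46266502-46266531, minus strand: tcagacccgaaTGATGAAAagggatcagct
SLC1A4, chr2:64989381-64989410, plus strand: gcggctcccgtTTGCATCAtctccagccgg
SLC7A1, chr13:29595663-29595692, minus strand: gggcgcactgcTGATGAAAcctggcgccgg
SLC1A5, chr19:46784893-46784922, minus strand: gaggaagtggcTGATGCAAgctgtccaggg
The TGACNNNGC windows follow:
SLC7A5, chr16:87869490-87869519, minus strand: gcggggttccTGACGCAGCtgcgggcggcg
SLC3A2, chr11:62881652-62881681, plus strand: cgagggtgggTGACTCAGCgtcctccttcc
SLC7A1, chr13:29595754-29595783, minus strand: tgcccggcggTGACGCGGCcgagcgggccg
SLC1A5, chr19:46787385-46787414, minus strand: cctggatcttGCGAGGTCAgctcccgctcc
A gene can have several start sites, and SLC3A2 has 3 windows. The 5 genes with TGATGNAA ran from a log2 ratio of MB to OM of -1.23 for SLC3A2 and -1.15 for SLC38A1, through -0.60 for SLC7A1 and -0.38 for SLC1A4, to -0.084 for SLC1A5. SLC7A5, with the lowest ratio, had no match to TGATGNAA in this window. A match is a string of letters and was not measured as a bound site.

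Genes with a pattern close to that of the transporters were sought among 12229 known genes well above background on all 3 arrays, by the distance between log2 ratios of MB to OM and of NM to OM. The nearest to the median of the 10 were SUPT3H, EGFL7, PAIP2, MARCKS and ESD, at distances from 0.01 to 0.02, and 149 genes lay within 0.1. The nearest to SLC7A11 were CHKB, NDUFB5, PSMB8, PGEA1 and EIF3S6 (array names), and 160 genes lay within 0.1. With 3 arrays a pattern has only 2 independent ratios, so many genes are equally close.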

How the data were processed

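Total RNA of 3 cultures of 1205Lu cells, OM, MB and NM, was hybridised to 3 Agilent arrays labelled with Cy3. Per the file headers, the authors deposited each spot's intensity from Feature Extraction 9.5.3.1, with background subtracted, on a linear scale in a.u.; the submitters' notes name version 9.5. The deposited value table holds the same intensity (130128 of 130128 values within 0.1%) and served as an alternative. Positions are those of the files, in hg17.

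From these, control spots and outlier spots (77 on OM, 79 on MB, 81 on NM) were left out and spots of a probe averaged. Arrays were scaled by the arithmetic mean of GAPDH, ACTB and HSP90AA1, each from a probe in 10 spots. A gene was represented by its probe with the highest mean signal. Genes counted as called passed 2-fold or 5-fold, and their brighter array exceeded 100 a.u. before scaling. Groups come from the labels, and with 1 array per group no p-value is given. The members and the gene lists were chosen with earlier results of these data known. Named genes are the 10 members, in each list up to 4 genes past 5-fold in either comparison of MB and up to 2 the other way by 2-fold, and the 5 nearest genes by pattern; others are marked in the text. Probes well above background numbered 28775 (OM), 29149 (MB) and 26530 (NM), and the number of arrays sets the precision. The slide was shared by all arrays and could not be used as a block.

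The 13 alternatives covered scaling (75th percentile, quantile, none, 7 spike-in probes, geometric mean, HSP90AB1), background correction (normexp with offset 50, limma 3.58.1 in R 4.3.3; none), the filter on dim signals, outlier spots, the mean over a gene's probes, and the deposited table. Python 3.11.15, numpy 2.4.6, pandas 2.3.3 and matplotlib 3.10.9 were used. Protein sequences were not used here.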

Additional observations from a re-analysis of the deposited data

How the results depend on the processing

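The count of transporters 2-fold or more lower in MB than in OM was 3 under each of the 13 alternatives, and against NM it was 4, or 3 without scaling and with the mean over probes, where SLC1A4 missed 2-fold. The 5-fold counts stayed at 0, although the SLC7A5 junction probe taken alone was 5.34-fold lower in MB than in OM. For NM over OM, 1 gene was 2-fold higher, SLC6A9, without the 100 a.u. minimum and with both arrays required well above background instead (1 each). Of 330 gene ratios, 140 moved by more than the technical SD and 0 of those past 2-fold changed sign. SLC7A5 ran from -2.07 to -1.71 in MB over OM, SLC3A2 from -1.53 to -1.22 and SLC38A1 from -1.45 to -1.15. Below 2-fold, SLC6A9 in MB over OM changed sign under 3 alternatives, SLC38A2 in MB over NM under 2, and in NM over OM SLC7A1 under 2 and SLC7A5 under 4. With the mean over a gene's probes, SLC1A4 and SLC7A11 changed sign in MB over OM.

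The median log2 ratio of the 10 genes for MB over OM was -0.50 with 75th percentile scaling, -0.49 with quantile normalization, -0.61 with spike-in scaling and -0.094 with the mean over the probes of a gene. For MB over NM it was -0.92 with 75th percentile scaling, -0.92 with quantile normalization, -0.65 without scaling, -0.98 with spike-in scaling, -0.90 with the geometric mean, -0.63 with normexp and -0.63 without background subtraction. For NM over OM it was 0.36 with 75th percentile scaling, 0.28 with quantile normalization, 0.24 without scaling, 0.29 with spike-in scaling and 0.50 with the geometric mean. Scaling also moved the median of all genes, from -0.21 to 0.095 for MB over OM, -0.13 to 0.19 for MB over NM and -0.11 to 0.15 for NM over OM. Beyond the scaling itself the cause was not tested. No paired analysis was possible because each culture has a single array. The variation between cultures was not measured.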
